A study of Mus musculus with 5 samples.

Results

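The positions of JunB and H3K27ac peaks around 10 genes that encode NF-kB transcription factor subunits and the inhibitors that restrain them were examined in mouse muscle stem cells (MuSCs). The genes were chosen for this role and not from measured values, and they are 10 of the 21951 protein-coding genes of the GENCODE M21 annotation. They comprise the subunits Nfkb1, Nfkb2, Rela, Relb and Rel, the IkB proteins Nfkbia, Nfkbie, Nfkbiz and Bcl3, and the ubiquitin-editing enzyme Tnfaip3. Peaks within 50 kb of any annotated transcription start site (TSS) of these genes were collected and split at 3 kb, the distance used here for a promoter.

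The data were CUT&RUN-seq peak lists of freshly isolated MuSCs, the Pax7-positive stem cells that repair skeletal muscle, which the study sorted by surface markers. In CUT&RUN-seq, an antibody held on its target guides a nuclease that cuts out the adjoining chromatin for sequencing. An antibody to JunB, a member of the AP-1 family of transcription factors, gave 3 libraries from young mice (named Young 1, Young 2 and Young 3 after their replicate numbers) and 1 from aged mice (Aged). An antibody to H3K27ac, an acetylated histone found at active promoters and enhancers, gave 1 further library, for which no age was stated. The methods also connect these H3K27ac data with a reference epigenome project, so the origin of this library, on which every H3K27ac overlap rests, is not fully clear. The methods name C57BL/6 for the aged mice of the study, but tie no strain, transgene or deletion to single libraries. The ages in months are not stated for them, and nothing says how many animals were pooled in a library. The series' design text speaks of DMSO- and MVC-treated mice, but every JunB sample is titled and grouped as young or aged, and this grouping was used. A supplementary peak sheet of the study places peaks identical to those of the aged list under a heading for young mice, so every direction by age given here rests on the sample labels. The peak names in the list of Young 1 carry the letters gfp.

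The Young 1, Young 2 and Young 3 lists held 9534, 4884 and 3863 peaks, the Aged list 14123 and the H3K27ac list 39865. The lists carry no counts of reads, and read totals that the study states elsewhere were not used here, so the depth behind each peak is not given. The lowest −log10 p was 3.01, 5.33 and 5.22 in the young lists and 3.01 in the aged list, so the deposited lists do not end at a common threshold, although the methods name a single p cutoff. With 1 aged library, no test between ages was made, and the smallest one-sided p of an exact permutation test of 1 against 3 libraries is 0.25. The spread of the 3 young libraries and the share of all protein-coding genes are given in its place. Of 8 MuSC marker genes, Myod1, Vcam1, Itga7, Cdh15 and Sdc4 had an H3K27ac peak within 3 kb of a TSS, and Pax7, Myf5 and Calcr had none. Of 9 markers of cells that sorting is meant to leave out, Pecam1 (endothelial) and Dpt (fibro-adipogenic) had one, and none of the 3 immune markers did. JunB promoter peaks were present at Cd68 (immune) and Dpt in all 4 libraries and at Pdgfra (fibro-adipogenic) in Aged, and at none of the 3 endothelial markers, Ptprc, Itgam or Ly6a in any. The part of other cells in the peaks described here was not tested.

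NF-kB is a family of dimeric transcription factors that switch on inflammatory and survival genes. In resting cells most dimers are held in the cytoplasm by IkB proteins, until the IKK kinase marks IkB for destruction and the dimers enter the nucleus. NF-kB then activates the genes of its own inhibitors, so that a response shuts itself off. Nfkb1 and Nfkb2 encode precursors that are processed into DNA-binding subunits, whereas Rela, Relb and Rel carry activation domains. Nfkbia and Nfkbie encode IkB proteins that retain dimers in the cytoplasm, Nfkbiz and Bcl3 encode nuclear IkB proteins that act on target promoters, and Tnfaip3 removes ubiquitin chains that signal to IKK. AP-1 and NF-kB are activated by many of the same stimuli.

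Promoter sequences are shown first because JunB occupancy divided these genes most clearly at their promoters. Nfkb2 and Tnfaip3 carried a JunB promoter peak in all 4 libraries, and Nfkbia carried none in any. The RefSeq promoters of GRCm38.p6, from 250 bases before to 50 bases after the start, were available for 7 of the 10 genes. In the 3 below, capitals mark copies of the 10-base kB consensus, to which NF-kB binds, and in Tnfaip3 also 1 copy of the AP-1 motif TGACTCA, which reads TGAGTCA on the other strand.
Nfkb2 promoter, chr19:46304487-46304786, plus strand: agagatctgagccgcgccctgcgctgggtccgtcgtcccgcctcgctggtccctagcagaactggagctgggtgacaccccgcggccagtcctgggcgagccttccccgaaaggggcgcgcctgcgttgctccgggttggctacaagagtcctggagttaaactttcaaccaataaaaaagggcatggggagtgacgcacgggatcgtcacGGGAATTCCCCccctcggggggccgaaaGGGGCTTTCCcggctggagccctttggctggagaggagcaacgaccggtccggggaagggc
Tnfaip3 promoter, chr10:19015361-19015660, minus strand: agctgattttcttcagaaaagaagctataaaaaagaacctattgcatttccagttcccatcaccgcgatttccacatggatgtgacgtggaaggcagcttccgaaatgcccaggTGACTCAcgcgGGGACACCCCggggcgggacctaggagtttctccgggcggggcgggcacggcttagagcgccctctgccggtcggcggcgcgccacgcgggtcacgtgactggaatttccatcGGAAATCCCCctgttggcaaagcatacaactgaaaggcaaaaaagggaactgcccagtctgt
Nfkbia promoter, chr12:55492598-55492897, minus strand: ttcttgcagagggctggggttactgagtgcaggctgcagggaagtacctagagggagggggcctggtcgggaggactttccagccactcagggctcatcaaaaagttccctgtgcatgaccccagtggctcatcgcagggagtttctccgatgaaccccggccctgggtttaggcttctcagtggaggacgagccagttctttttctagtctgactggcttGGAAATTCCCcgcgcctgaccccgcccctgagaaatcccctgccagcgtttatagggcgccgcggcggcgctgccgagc
The kB consensus, sought on both strands, was found in 8 of the 10 promoters of these 7 genes and in 6 of the 7 genes, against 8.46% of all 32851 RefSeq promoters. In the Nfkb2 promoter shown, 2 of its 3 copies overlap and form a single run of capitals. Nfkb2 has 3 of the 10 promoters, of which 2 overlap and share a kB copy, so the 10 are not all separate sequences. The AP-1 motif was found in 2 of the 10 promoters, those of Nfkbie and Tnfaip3, against 5.20% of all promoters. The cyclic AMP response element TGACGTCA, an alternative AP-1 dimer site, was found in 0 of the 10, against 1.79% of all promoters. A match describes the letters only and is not a binding site.

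JunB peaks lay at the promoters of most of these genes, and their number followed the length of the peak list. A peak within 3 kb of a TSS was present at 7 of the 10 genes in Young 1, against 11.1% of all protein-coding genes, at 4 in Young 2 (7.79% of all genes) and at 2 in Young 3 (5.95%). The young libraries averaged 4.33 ± 2.52 genes (SD, n = 3). In the aged library 9 of the 10 genes had a promoter peak, against 23.9% of all protein-coding genes, which is above each young library. The aged list was also the longest. With a window of 1 kb, the counts were 7, 4 and 2 in the young libraries (background 8.77%, 6.24% and 4.71%) and 7 in the aged library (20.9%), so the aged library no longer stood above Young 1. When each JunB library was reduced to its 3863 strongest peaks, the counts were 3, 2 and 2 in the young libraries (background 5.52%, 6.08% and 5.95%) against 5 in Aged (8.83%). At that size Nfkb2 and Tnfaip3 were still present in every library, Nfkb1, Relb and Bcl3 were present in Aged alone (background 3.21%), and Rel in Young 1 alone (2.83% of all genes had a peak in a young library but not in Aged).

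**Figure D1:**
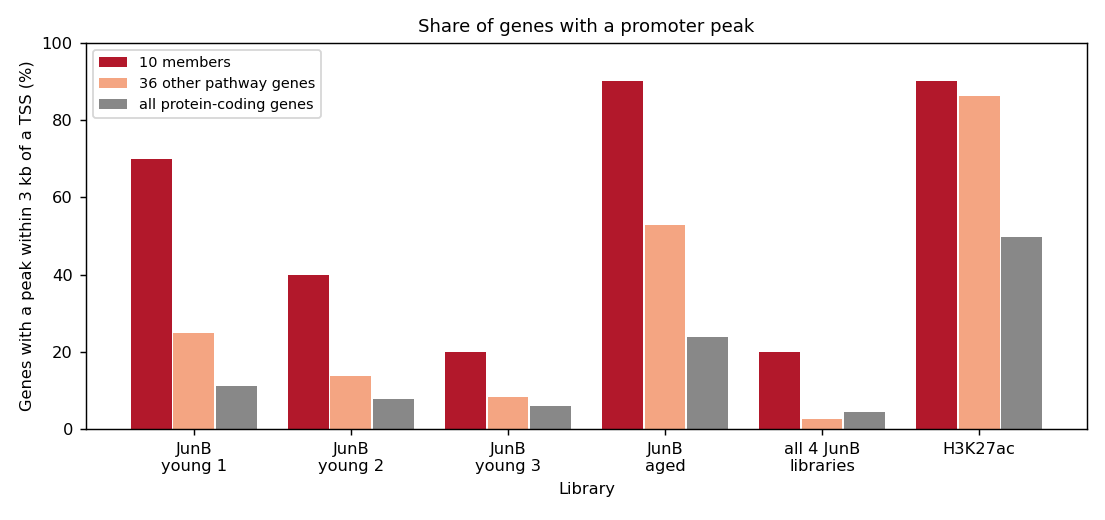
Bars give the percentage of genes with a peak within 3 kb of a TSS (vertical axis, from 0) in each library and in all 4 JunB libraries at once, for the 10 NF-kB genes, 36 other NF-kB pathway genes and all protein-coding genes. In the aged library the bars stand at 90%, 52.8% and 23.9%.

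The 10 genes have a median of 5.5 annotated TSSs each, compared with 3 for all protein-coding genes, which gives them more sites near which a peak can fall. With the 5′ end of each gene as its only TSS, the JunB counts stayed at 7, 4, 2 and 9 in Young 1, Young 2, Young 3 and Aged, against 8.87%, 6.24%, 4.67% and 20.7% of all genes. The 10 genes were also richer in H3K27ac than most genes, with an H3K27ac peak at 9 of 10 promoters against 49.8% of all protein-coding genes. With the 5′ end as the only TSS it was 8 of 10, against 45.2%, as Tnfaip3 had H3K27ac only near an internal TSS. Among genes with an H3K27ac promoter peak, the background of JunB promoter peaks was 20%, 14.5%, 11% and 42.4% in the same order of libraries. In this restricted comparison 6, 4, 2 and 8 of the 9 genes had a JunB promoter peak.

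Of the 5 subunit genes, 4, 3, 1 and 5 had a promoter peak in Young 1, Young 2, Young 3 and Aged. Nfkb2, on chromosome 19 (46304320-46312385 in mm10, plus strand), had a region at chr19:46304335-46305321 with a peak in all 4 libraries, which began 15 bp downstream of its 5′ end. The aged peak reached across a further TSS, and the young peaks ended before it. Its fold enrichment, the read pileup at a peak summit divided by the local background of its own library, was 9.23, 8.57 and 7.65 in Young 1, Young 2 and Young 3 against 7.34 in Aged. The aged value lay just below the lowest young one. The region lay within an H3K27ac peak of 4.69-fold that covered the 5′ end. Young replicate 1 held a further weak peak of 4.15-fold in the 5′ untranslated part of Nfkb2, at chr19:46305744-46305992.

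Relb and Rel shared a pattern, with promoter peaks in Young 1, Young 2 and Aged but not in Young 3. At Relb (chr7:19606217-19629438, minus strand), the region at chr7:19628454-19629367 covered a TSS, and fold enrichment was 5.40 and 5.48 in the young libraries against 8.10 in Aged. At Rel (chr11:23736847-23770970, minus strand), whose product c-Rel is best known from lymphoid cells, the peak at chr11:23770499-23771057 covered the 5′ end, and fold enrichment was 8.32 and 6.26 in the young libraries against 4.84 in Aged. The order by age was therefore opposite at these genes. Each of these 2 regions overlapped an H3K27ac peak.

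Rela (chr19:5637483-5648130, plus strand), which encodes the main activating subunit, had 3 separate small promoter regions. At chr19:5637069-5637362, 121 bp upstream of a TSS, Young 1 held a peak of 4.57-fold. The aged library held peaks of 5.01-fold at chr19:5636782-5637026 and 5.30-fold at chr19:5637771-5638015, the latter across an internal TSS. None of the 3 regions was shared between libraries, although the gene counts as occupied in Young 1 and Aged.

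Nfkb1 (chr3:135584655-135691547, minus strand) had promoter peaks in Aged alone. They lay in introns of this long gene, at chr3:135592954-135593220 (6.22-fold), 1221 bp from an internal TSS, and at chr3:135688737-135688981 (3.92-fold), 2566 bp from the 5′ end. Neither region overlapped H3K27ac, although an H3K27ac peak of 3.47-fold lay 211 bp upstream of the 5′ end of the gene.

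Of the 4 IkB genes, 2, 0, 0 and 3 had a promoter peak in Young 1, Young 2, Young 3 and Aged. Nfkbia (chr12:55489410-55492647, minus strand), the classical feedback inhibitor, was the exception among all 10 genes, with no JunB peak within 3 kb of its TSSs in any library. Nfkbia did carry H3K27ac, in a weak peak of 2.99-fold that lay 972 bp downstream of its 5′ end and was stronger by −log10 p than only 12.2% of the H3K27ac peaks. Nfkbie (chr17:45555703-45563169, plus strand) had the reverse arrangement. A JunB region at chr17:45555262-45555799 was 4.98-fold in Young 1 against 3.82-fold in Aged. The aged peak covered the 5′ end, and the young peak ended just upstream of it. The nearest H3K27ac peak was 17350 bp away.

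Nfkbiz (chr16:55811375-55838899, minus strand), a nuclear IkB that serves secondary response genes, combined weak JunB with strong H3K27ac. The JunB region at its 5′ end (chr16:55838722-55839367) was 4.55-fold in Young 1 against 5.17-fold in Aged, of which the aged peak covered the 5′ end and the young peak lay just upstream. The H3K27ac peak there was 5.75-fold, and its −log10 p of 39.1 exceeded 98.6% of all H3K27ac peaks. A second aged peak of 5.33-fold lay 104 bp from an internal TSS at chr16:55822242-55822507, outside H3K27ac.

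Bcl3 (chr7:19808462-19822770, minus strand) had 3 promoter peaks, all of them in Aged. The strongest, of 6.44-fold, lay 1342 bp upstream of the 5′ end at chr7:19824112-19824400, and 1 of 4.99-fold lay in an intron at chr7:19817673-19817968. These regions overlapped H3K27ac, and the weakest, of 3.33-fold at chr7:19818296-19818807, did not. At 3 kb, promoter peaks in Aged but no young library were thus found at 2 of the 10 genes, Nfkb1 and Bcl3, against 13.1% of all protein-coding genes. All their promoter regions lay more than 1 kb from a TSS, and at 1 kb the count was 0 of 10 (12.1% of all genes). No gene of the 10 had a promoter peak in a young library without one in Aged, against 1.95% of all genes.

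Tnfaip3 (chr10:19000910-19015657, minus strand) had the other promoter region present in all 4 libraries. This region at chr10:19015523-19015848 covered the 5′ end, with fold enrichment of 7.64, 8.19 and 9.10 in Young 1, Young 2 and Young 3 against 8.49 in Aged. The aged value fell inside the young range. Unlike the region at Nfkb2, this one overlapped no H3K27ac peak, and the nearest to the 5′ end lay 6173 bp downstream. Promoter peaks in all 4 JunB libraries were found at Nfkb2 and Tnfaip3, 2 of the 10 genes, against 4.4% of all protein-coding genes.

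The bases around the summit of the strongest JunB promoter peak are given next for the 9 genes that had one, since a directly bound AP-1 protein would be looked for there. All are on the plus strand of GRCm38 and centred on the summit, and capitals mark a kB match.
Nfkb1 promoter summit, chr3:135593087-135593127: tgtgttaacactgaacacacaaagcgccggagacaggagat
Nfkb2 promoter summit, chr19:46304428-46304468: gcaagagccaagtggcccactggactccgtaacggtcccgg
Rela promoter summit, chr19:5637898-5637938: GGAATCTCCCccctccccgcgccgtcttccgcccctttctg
Relb promoter summit, chr7:19628647-19628687: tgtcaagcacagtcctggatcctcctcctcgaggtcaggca
Rel promoter summit, chr11:23770827-23770867: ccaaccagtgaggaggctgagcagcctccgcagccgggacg
Nfkbie promoter summit, chr17:45555297-45555337: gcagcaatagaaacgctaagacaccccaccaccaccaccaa
Nfkbiz promoter summit, chr16:55822304-55822344: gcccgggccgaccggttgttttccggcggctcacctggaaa
Bcl3 promoter summit, chr7:19824213-19824253: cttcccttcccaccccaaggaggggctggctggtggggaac
Tnfaip3 promoter summit, chr10:19015673-19015713: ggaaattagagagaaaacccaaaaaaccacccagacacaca
None of these windows of 41 bases held the AP-1 motif, and the one at Rela held a kB match. Within 50 bases of the summit, 2 of the 49 JunB regions near the 10 genes held the AP-1 motif (4.08%, against 3.90% of all JunB regions of the genome), 2 held the kB consensus (4.08%, against 2.38%) and 0 held the cyclic AMP response element (against 0.228%).

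With promoters included, JunB peaks lay within 50 kb of each of the 10 genes in Young 1 and in Aged, against 40.4% and 58.5% of all protein-coding genes, and of 8 and 6 genes in Young 2 and Young 3 (27.6% and 23.5%). Between 3 and 50 kb there were 15, 11 and 7 peaks in the young libraries, a mean of 11 ± 4 (SD, n = 3), against 29 in Aged. Within 3 kb there were 8, 4 and 2 peaks in the young libraries (4.67 ± 3.06, SD, n = 3) against 14 in Aged. The aged library was above every young library in both windows, and it was also the longest list. Nfkb1 had the most peaks of the 10 genes in Aged, with 8. It also had the most annotated TSSs, 10, spread along a long gene, so a longer stretch was searched for it. Relb and Nfkb2 had no young peak between 3 and 50 kb, and Nfkbiz had no JunB peak there in any library.

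**Figure D2:**
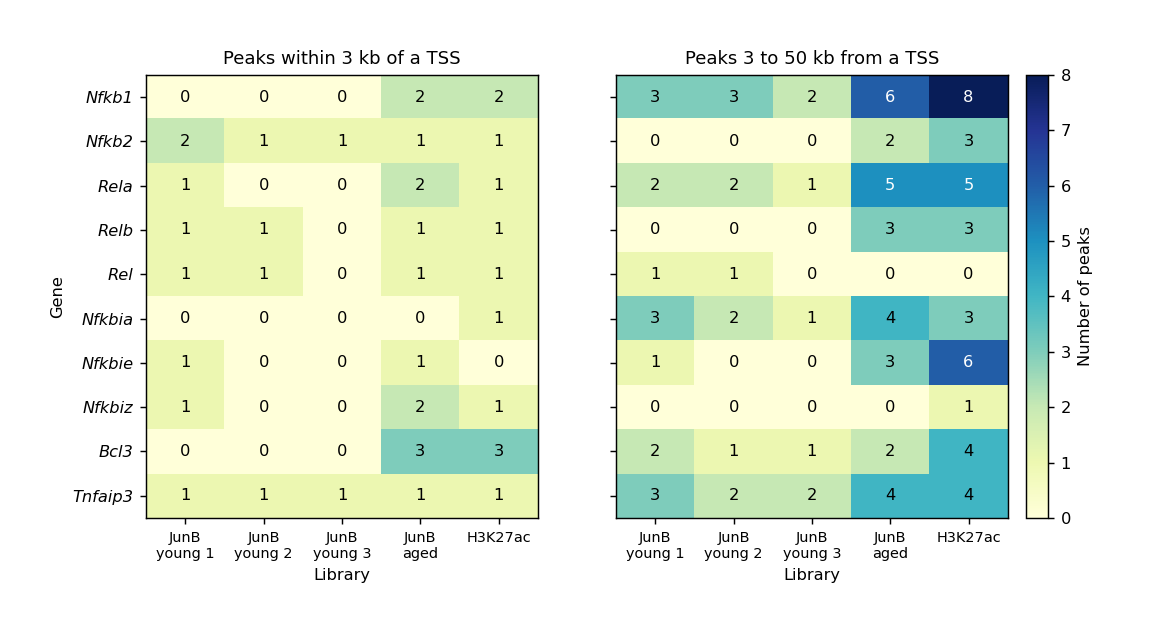
Numbers in the cells count the peaks of each library (columns) within 3 kb (left) or from 3 to 50 kb (right) of a TSS of each gene (rows), with darker cells for more peaks. Nfkb2 and Tnfaip3 have a peak in every JunB column of the left panel, and Nfkbia has none.

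Merging overlapping JunB peaks gave 49 regions. Of these, 16 lay within 3 kb of a TSS of the 10 genes, 10 lay farther away within 3 kb of a TSS of a neighbouring protein-coding gene, and 23 were distal to both. By the summit of the region's strongest peak, 29 were intergenic, 11 in introns, 6 in 5′ untranslated exons, 2 in coding exons and 1 in a non-coding exon. For 33 of the 49, the nearest protein-coding gene was the NF-kB gene itself.

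A peak was present in all 4 JunB libraries in 8 of the 49 regions (16.3%, against 13.1% of 18884 JunB regions in the genome and 14.4% of those within 50 kb of a protein-coding TSS). The aged library alone held 25 regions (51%, against 45% in the genome and 46.4% near protein-coding genes), and young libraries alone held 6 (12.2%, against 25.8% and 21.6%). The other 10 had a peak in Aged and in some of the young libraries. With equal numbers of peaks in each library, 6 regions were in Aged alone and 7 in young libraries alone. The young count pools 3 lists against 1 aged list, and no genome shares are given at this size. No difference by age is read from these counts.

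**Figure D3:**
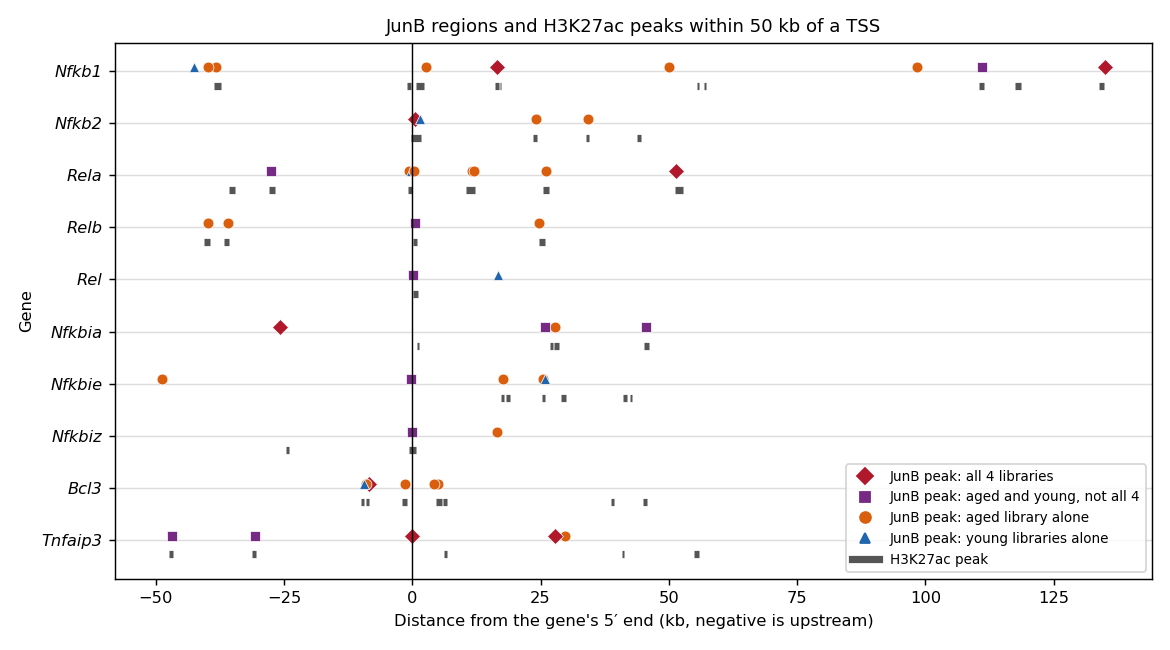
Each symbol is a JunB region placed by its distance in kb from the 5′ end of its gene (negative is upstream), with shape and colour for the libraries that hold it, and grey bars below each line are H3K27ac peaks. The 8 regions found in all 4 libraries are red diamonds, of which 2 lie at a promoter, those of Nfkb2 and Tnfaip3.

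The regions found in all 4 libraries lay at 6 of the 10 genes. The strongest was at chr3:135556185-135556745, 37696 bp downstream of the nearest Nfkb1 TSS and inside an intron of the neighbouring gene Manba, which encodes lysosomal beta-mannosidase and whose TSS is closer (5555 bp). Its fold enrichment was 26.0, 24.2 and 23.7 in Young 1, Young 2 and Young 3 against 17.2 in Aged. Its aged −log10 p of 60.9 exceeded 99.6% of the aged peaks. The region overlapped H3K27ac only at its right edge, where an H3K27ac peak began at chr3:135556702. The aged peak alone reached it, and the young peaks and the summit lay outside it. A second shared region, inside Nfkb1 itself at chr3:135674618-135675296, was 10.7-, 9.31- and 7.48-fold in the young libraries against 9.08-fold in Aged, within the young range.

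Nfkbia, which lacked a promoter peak, had its strongest JunB region 25612 bp upstream, at chr12:55518259-55518754. Fold enrichment there was 15.6, 17.6 and 15.8 in Young 1, Young 2 and Young 3 but 5.91 in Aged. The young values differed little from each other (16.3 ± 1.06, SD, n = 3), and the aged value was 0.362 of their mean, the lowest such ratio of the 8 regions. No H3K27ac peak overlapped it. Nfkbia had 3 further distal regions, all downstream. At chr12:55466147-55467320 fold enrichment was 6.46 and 6.42 in Young 1 and Young 2 against 4.54 in Aged, without H3K27ac. An aged peak of 5.35-fold at chr12:55464705-55464984 and a region at chr12:55446922-55447263, of 3.32-fold in Young 1 against 5.19-fold in Aged, overlapped H3K27ac.

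Bcl3 had a shared region 8153 bp upstream, at chr7:19830923-19831552, that overlapped H3K27ac. Its fold enrichment was 13.4, 14.0 and 10.4 in the young libraries against 6.67 in Aged. The promoter peaks of Bcl3 were found in Aged alone, whereas this upstream region was weaker there than in each young library.

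Tnfaip3 had a shared region 20625 bp downstream of its nearest TSS, at chr10:18987617-18988220, of 4.98-, 9.58- and 4.30-fold in the young libraries against 3.85-fold in Aged, without H3K27ac. The shared region counted for Rela lay 47385 bp away at chr19:5688531-5689119, at the promoter of Map3k11, a kinase of the JNK pathway, and in the 5′ untranslated exon of Pcnx3. Fold enrichment there was 4.57, 8.02 and 7.24 in the young libraries against 6.71 in Aged, and it overlapped H3K27ac.

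**Figure D4:**
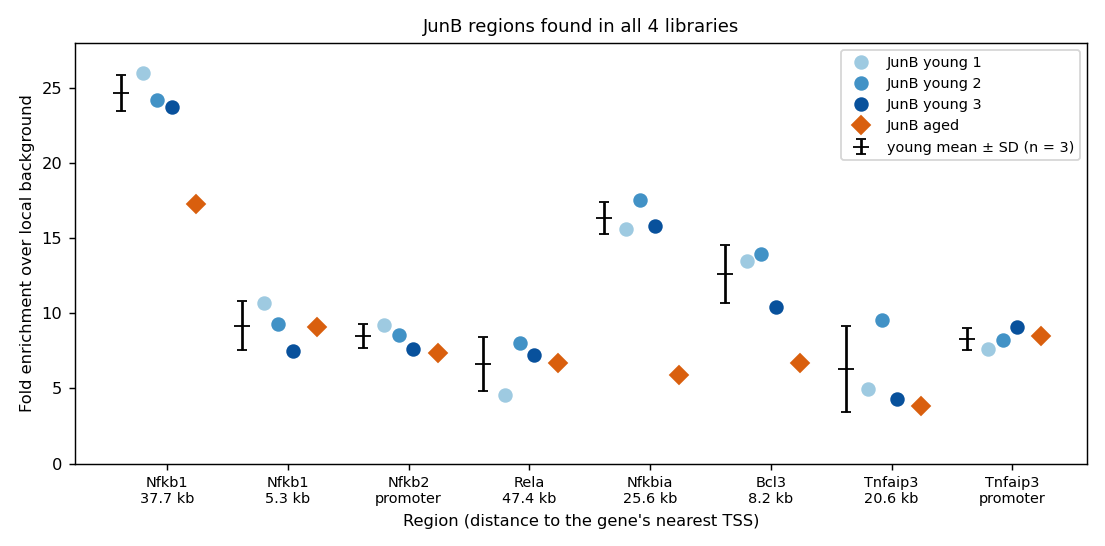
Points give the fold enrichment over local background (vertical axis) of each young library (circles) and the aged library (diamonds) at the 8 JunB regions found in all 4 libraries, and the black bars are the young mean ± SD (n = 3). The aged point lies far below the young points at the Nfkbia region and inside their range at the Tnfaip3 promoter.

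The aged fold enrichment was below all 3 young values in 5 of the 8 shared regions, within their range in 3 and above them in 0. Over all 2470 regions of the genome with a peak in all 4 libraries, it was below in 62.7% and above in 8.26%. The median ratio of the aged value to the young mean was 0.783 for the 8 regions and 0.772 for all shared regions. Lower aged values at shared regions were therefore not particular to these genes.

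The summits of the 6 shared regions outside the promoters of the 10 genes are given next on the plus strand of GRCm38. These were the most reproducible regions 3 to 50 kb away, and the one counted for Rela lay at a neighbour's promoter. None of the 6 held a kB or AP-1 match in the 41 bases shown.
Nfkb1 summit, intron of Manba, chr3:135556336-135556376: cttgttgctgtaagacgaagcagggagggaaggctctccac
Nfkb1 summit, intron of Nfkb1, chr3:135674975-135675015: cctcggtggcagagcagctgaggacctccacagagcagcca
Rela summit, Map3k11 and Pcnx3, chr19:5688844-5688884: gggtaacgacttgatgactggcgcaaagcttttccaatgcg
Nfkbia summit, upstream, chr12:55518465-55518505: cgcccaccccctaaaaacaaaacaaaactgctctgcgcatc
Bcl3 summit, upstream, chr7:19831144-19831184: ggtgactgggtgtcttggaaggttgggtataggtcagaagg
Tnfaip3 summit, downstream, chr10:18987790-18987830: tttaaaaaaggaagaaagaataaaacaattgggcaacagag
The AP-1 motif lay farther out. A distance of 250 bases from the summit was chosen after the data were seen. Within it, 17 of the 49 regions had a copy (34.7%, against 32.1% of all JunB regions). The same held for 4 of the 8 shared regions (50%, against 57.2% of all shared regions). These 250 bases can reach past the edge of a region, and some of the copies lay partly or wholly outside it. There were 21 copies in all, of which 13 lay 125 to 224 bases from the summit and 2 within 50 bases. Within the same 250 bases, which were again not limited to the region, 12 of the 49 regions had the kB consensus (24.5%, against 11.3%). In the following stretches on the plus strand, capitals mark the AP-1 motif. They are from the 4 shared regions that had it within 250 bases and from 5 regions found in some of the libraries, 1 for each of 5 genes.
Nfkb1, intron of Manba, chr3:135556198-135556238: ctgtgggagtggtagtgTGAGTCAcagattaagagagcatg
Nfkb1, intron of Nfkb1, chr3:135674810-135674850: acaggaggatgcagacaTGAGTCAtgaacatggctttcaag
Bcl3, upstream, chr7:19830986-19831026: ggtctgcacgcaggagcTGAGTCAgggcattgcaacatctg
Tnfaip3, promoter, chr10:19015523-19015563: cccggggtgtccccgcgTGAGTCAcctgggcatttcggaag
Rel, promoter, chr11:23770750-23770790: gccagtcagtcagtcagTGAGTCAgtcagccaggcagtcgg
Nfkbie, promoter, chr17:45555527-45555567: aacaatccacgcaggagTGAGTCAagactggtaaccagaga
Rela, promoter, chr19:5637993-5638033: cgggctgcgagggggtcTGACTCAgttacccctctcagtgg
Nfkbia, downstream, chr12:55466438-55466478: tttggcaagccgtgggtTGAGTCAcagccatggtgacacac
Tnfaip3, upstream, chr10:19046203-19046243: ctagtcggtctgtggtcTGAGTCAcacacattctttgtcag
The copy at the Tnfaip3 promoter, 150 bases from the summit, is the one marked in the Tnfaip3 promoter above, read there on the other strand. At the shared regions of Nfkb1 and Bcl3 the copies lay 138, 165 and 158 bases from the summit, all to its left on the plus strand. The copy at Rel lay 77 bases and that at Nfkbie 230 bases from the summit. The copy shown for Rela lay 95 bases from the summit and was not wholly inside its region.

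**Figure D5:**
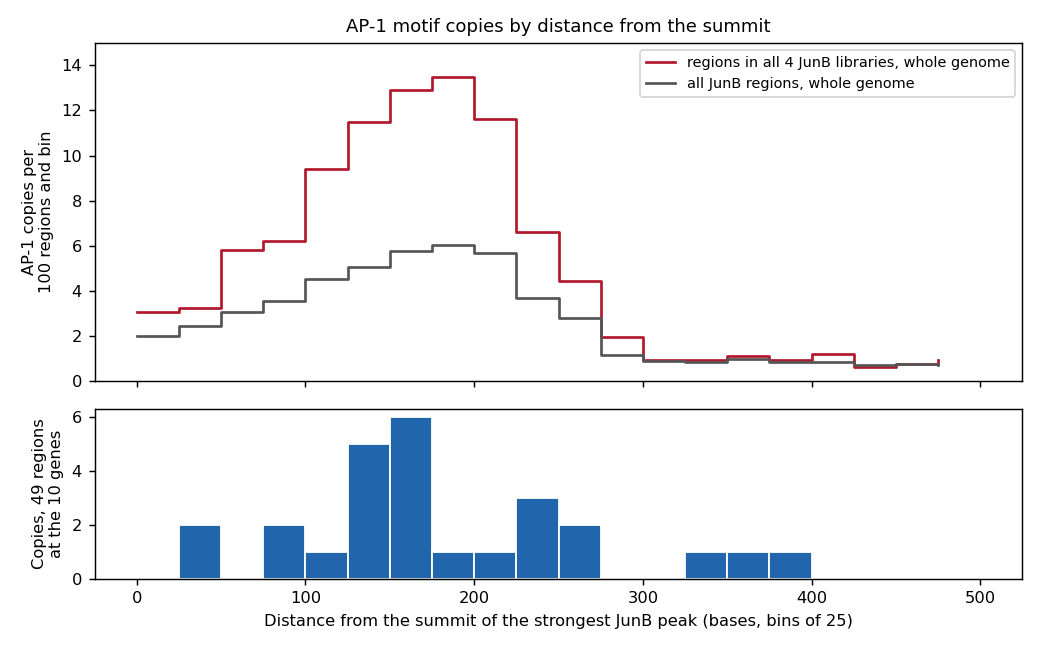
The upper panel gives AP-1 motif copies per 100 regions in bins of 25 bases by distance from the summit of the strongest JunB peak, for all JunB regions of the genome and for those in all 4 libraries, and the lower panel gives the number of copies at the 49 regions near the NF-kB genes. In the upper panel the curve for all regions is highest at 175 to 199 bases, at 6.03 copies per 100 regions.

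H3K27ac overlapped 33 of the 49 JunB regions, 67.3% (exact 95% binomial interval 52.5% to 80.1%, which covers counting error only), against 42.6% of all JunB regions in the genome and 48.8% of those within 50 kb of a protein-coding TSS. An overlap of 1 bp was enough. Read from the summit the share was 59.2%, and with at least 50% of the region in H3K27ac it was 61.2%. No genome shares are given for these 2 rules. With 1 bp, the overlap was 9 of 16 at the promoters of the 10 genes, 9 of 10 at the promoters of their neighbours and 15 of 23 at distal regions. Regions in Aged alone overlapped H3K27ac in 16 of 25 cases (64%, against 36% in the genome), and shared regions in 5 of 8 (62.5%, against 69.9%). H3K27ac peaks covered a median of 3.92% of the 50 kb windows of the 10 genes, from 0.937% at Rel to 6.95% at Rela, against 1.76% for all protein-coding genes.

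Of the regions 3 to 50 kb away that overlapped H3K27ac, those with a peak in 2 or 3 JunB libraries or in the aged library alone were ranked by −log10 p, and the 10 strongest lay near 7 genes. At Rela, a region at chr19:5609551-5610343 in the promoter of Kat5, a histone acetyltransferase gene, was 4.96- and 5.48-fold in Young 1 and Young 2 against 7.67-fold in Aged, and an aged peak of 6.21-fold lay in Sipa1 (chr19:5663459-5663786). At Nfkb1, a region 13654 bp downstream (chr3:135580366-135580787) was 7.57-fold in Young 2 against 5.28-fold in Aged. At Relb, aged peaks of 7.78-fold (chr7:19669115-19669473) and 5.63-fold (chr7:19665200-19665457) lay upstream near Clptm1. At Tnfaip3, a region 46628 bp upstream (chr10:19062285-19062654) was 7.01- and 7.35-fold in Young 1 and Young 3 against 6.11-fold in Aged. A second Tnfaip3 region, 30289 bp upstream (chr10:19045946-19046660), was 4.97- and 4.95-fold in Young 1 and Young 2 against 3.54-fold in Aged. The aged peak there (chr10:19046416-19046660) overlapped only the right end of the young peaks, which ended at 19046444. It was stronger by −log10 p than only 4.70% of the aged peaks. The remainder were aged peaks at Nfkbia (described above), at Nfkbie (5.70-fold at chr17:45581006-45581271) and at Bcl3 (4.57-fold at chr7:19831717-19832024). The distal regions that overlapped H3K27ac and had a peak in 1 young library alone, which were not part of this ranking, were a peak of 5.81-fold at Nfkbie (chr17:45581330-45581607) and a peak of 4.43-fold at Bcl3 (chr7:19832045-19832293), both in Young 1. At Rel, a region inside the gene at chr11:23754125-23754444 was 6.64- and 8.67-fold in Young 1 and Young 2 and absent from the aged list.

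Presence or absence of a promoter peak over the 5 libraries gave each gene a pattern that can be counted in the genome. The pattern of Nfkb2 and Tnfaip3, a peak in every library, was held by 900 protein-coding genes (4.10%). At Tnfaip3 the JunB peaks lay at the 5′ end and the H3K27ac peak near an internal TSS. The pattern of Nfkb1 and Bcl3, aged JunB with H3K27ac, was held by 2439 (11.1%), that of Rela and Nfkbiz by 545 (2.48%) and that of Relb and Rel by 375 (1.71%). Nfkbia shared its pattern, H3K27ac alone, with 5977 genes (27.2%). Nfkbie was the least usual, as its pattern of JunB in Young 1 and Aged without H3K27ac was held by 55 genes (0.251%). These counts include the named genes.

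The other genes of the pathway were read from a list of 36 that carry the signal to NF-kB or restrain it. In the aged library 19 of the 36 had a JunB promoter peak (52.8%, against 23.9% of all genes), and in the merged young libraries 12 (33.3%, against 12.8%). H3K27ac was present at 31 of the 36 (86.1%, against 49.8% of all genes), and 19 of these 31 had an aged JunB promoter peak, against 42.4% of all genes with promoter H3K27ac. With equal numbers of peaks, 8 of the 36 were left in Aged and 5 in the merged young libraries (background 8.83% and 8.45%). The 36 genes have a median of 5.5 annotated TSSs each, compared with 3 for all protein-coding genes. With the 5′ end of each gene as its only TSS, 15 had a JunB peak in Aged (41.7%, against 20.7%). In the merged young libraries 8 then had one (22.2%, against 10.3%). Traf2, an adaptor of the tumour necrosis factor receptors, was the 1 gene of the 36 with a promoter peak in all 4 libraries, at 20.1-, 23.0- and 20.7-fold in Young 1, Young 2 and Young 3 against 14.4-fold in Aged. These values are above those at any promoter of the 10 genes. However, with a window of 1 kb, or with the 5′ end as the only TSS, 0 of the 36 genes had a peak in all 4.

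Peaks in Aged but no young library were found at 11 of the 36 promoters (30.6%, against 13.1% of all genes), and a peak in a young library without one in Aged at 4 (11.1%, against 1.95%). All 11 were among the 31 genes with promoter H3K27ac, where the background was 22.3%. With equal numbers of peaks the counts in Aged alone and in young libraries alone were 5 (background 3.21%) and 2 (2.83%). With the 5′ end as the only TSS they were 9 (25%, against 11.9%) and 2 (5.56%, against 1.47%). In order of −log10 p in Aged, the 10 strongest of the 11 began with Map3k14 (12), the kinase of the non-canonical pathway. Next were Tnip1 (11.5), a partner of Tnfaip3, and Otulin (11.3), which removes linear ubiquitin chains. They were followed by the adaptor Myd88 (9.04), the deubiquitinases Otud7b (8.31) and Cyld (7.58), the kinase Irak4 (6.21), and Rbck1 (6.21) and Sharpin (5.53) of the linear ubiquitin ligase with Ikbkg (5.93), the regulatory subunit of IKK, between them. The other subunits of IKK, Chuk and Ikbkb, and the TAK1 partners Tab1, Tab2 and Tab3 had no JunB promoter peak in any library. By role, the aged library had promoter peaks at 1 of 3 IKK genes, 2 of 4 other kinases, 0 of 3 TAK1 partners, 5 of 11 receptor adaptors, 4 of 5 ubiquitin ligases and 7 of 10 other inhibitors.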

How the data were processed

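CUT&RUN-seq peak lists of 5 libraries were used. Per the methods and labels, the authors aligned quality-filtered reads to mm10 by Bowtie2, discarded redundant reads, and ran MACS2 on every library separately. Versions and a control library are not given in the sources used here. The deposited values are the fold enrichment (a ratio to local background) and the −log10 p and −log10 q of each peak. The score column was not used. The lists give no read counts, and read totals stated by the study were not used here.

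Peaks within 50 kb of a TSS (3 kb for promoters) were taken with GENCODE M21 by the distance from the peak's edge, JunB peaks were merged where they overlapped or touched, and H3K27ac overlap required 1 bp. Motifs were sought in GRCm38.p6. The share of JunB regions near the genes that overlap H3K27ac carries an exact Clopper-Pearson 95% interval, and the other shares are given without one. Python 3.11.15, numpy 2.4.6, scipy 1.17.1 and matplotlib 3.10.9 were used, and promoter calls, merging and overlap were tested on simulated data.

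The genes and lists were chosen with earlier results of these data known. All 10 genes, all their promoter regions, the distal regions in all 4 JunB libraries, and the 10 strongest further distal regions with H3K27ac and a peak in at least 2 JunB libraries or in the aged library alone were named, as were pathway genes with promoter peaks in all 4 JunB libraries or in the aged library and no young library (at most 10 each). The remaining Nfkbia regions, the 2 distal regions with H3K27ac in a young library alone, the Rel region inside the gene and the AP-1 copies shown were chosen after their values were seen. Alternatives covered the windows, the TSS set, thresholds, equal numbers of peaks, summits, merging, the nearest gene, the overlap and each young library.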

Additional observations from a re-analysis of the deposited data

How the results depend on the processing

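Of 77 values recomputed over 14 settings, 59 stayed within the limits set for them and 18 moved further. The limits were wide. A count could change by a fixed ratio, which passed a change from 9 genes to 7 or from 6 regions to 9. The H3K27ac share had only to stay within its 95% interval of 52.5% to 80.1%. The 59 are therefore no measure of how steady the values are. With equal numbers of peaks (the 3863 strongest of each JunB library), promoter peaks were left at 5 of the 10 genes in the aged library and 3 in the merged young libraries, regions in all 4 libraries at 5 and regions in the aged library alone at 6, and the 36 pathway genes gave 8 (aged) and 5 (merged young). A promoter window of 1 kb left 7 of the 10 genes in Aged and in the merged young libraries, and 7 pathway genes in the merged young libraries. A window of 20 kb left 4 regions in all 4 libraries and 13 in the aged library alone, and taking only regions whose nearest protein-coding gene was the NF-kB gene left 14 in the aged library alone. Merging across gaps of up to 200 bp left 3 regions in young libraries alone. Requiring a peak in at least 2 young libraries left 4 of the 10 genes and 4 pathway genes. Leaving out each young library in turn gave 4 to 7 of the 10 genes in the merged young libraries (4 without Young 1), 2 to 4 genes in all JunB libraries and 8 to 13 regions in all JunB libraries (4 and 13 without Young 3), 25 to 28 regions in the aged library alone, 1 to 6 regions in young libraries alone (1 without Young 1), 7 to 11 pathway genes in the merged young libraries (7 without Young 1) and an H3K27ac overlap of 65.9% to 67.3%. With a −log10 p of at least 5.33 in every JunB list, the highest of their minima and a setting chosen after the data were seen, 8 of the 10 genes had an aged promoter peak and 7 a young one. Over all settings the H3K27ac overlap ran from 59.2%, read from the summit, to 70.5%, at this −log10 p. No paired analysis was possible because the aged group is 1 library whose title carries no replicate number and no test was made. The lists hold no read counts, so a peak missing from a list may lie below that library's threshold.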

Other observations

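The AP-1 motif stood to the side of the summit in each JunB library, and not at the 10 NF-kB genes alone. At 125 to 224 bases from the summit there were 30.0, 41.7 and 41.9 AP-1 copies per 100 peaks in Young 1, Young 2 and Young 3 and 22.0 in Aged. At 300 to 399 bases, an equally wide span, there were 3.45, 3.85, 4.53 and 4.16. At 0 to 49 bases, a narrower span, there were 5.91, 6.87, 8.39 and 4.04. Scaled to 100 bases searched, these were 5.97, 6.94, 8.48 and 4.08, against 1.73, 1.93, 2.26 and 2.08 at 300 to 399 bases. The motif was thus denser at 0 to 49 bases than at 300 to 399, and densest at 125 to 224, in each JunB library. Without this scaling, the H3K27ac library showed 5.55 copies per 100 peaks at 125 to 224 bases and 4.34 at 300 to 399. Over all JunB regions, the share with an AP-1 copy within 250 bases was 57.2% for regions in all 4 libraries, 32.3% for regions in young libraries alone and 21.4% for regions in the aged library alone. A search limited to 50 bases around the summit therefore misses most AP-1 copies near these peaks, as it does at the NF-kB genes. These distances were noticed in the same peaks that they describe, and their cause was not tested.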
